A study of Mus musculus with 16 samples.

Results

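GABA-A receptors are the ion channels through which the transmitter GABA acts fastest, and 7 genes for their subunits were followed in neural stem cells (NSC) in which the long noncoding RNA *RUS* was depleted: *Gabra2*, *Gabra3*, *Gabra4* and *Gabra5* for α subunits, *Gabrb1* and *Gabrb2* for β subunits, and *Gabrg1* for a γ subunit. They were taken by name from the expression tables, where each stands on a line of its own, 7 of 55365 lines that the tables of both days share. NSC were prepared from embryonic cortices (C57BL/6, E15-16), seeded as monolayers and transduced with a lentivirus for a scrambled shRNA (shRNA CON) or for an shRNA against *RUS* (shRNA RUS). On day 5 after seeding bFGF was withdrawn and the cells were placed in differentiation medium, and RNA was taken on day 5 and on day 7. The 4 groups hold 4 libraries each, 16 in all. All groups were transduced, so that no group shows cells without virus, and only 1 shRNA against *RUS* was sequenced. The cortices of several embryos were pooled, and the labels number the replicates 1 to 4 without saying that they are separate cultures, so that every p-value below measures the spread between these libraries, which may be technical. Each library was deposited as TPM, a level per transcript length with the same sum in every library. TPM were scaled here between libraries (scaled TPM). The tables keep no read counts, and the depth of a library is therefore unknown.

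A GABA-A receptor is a ring of subunits around a chloride pore, most often built from α, β and γ subunits, with GABA bound between α and β. The α subunit sets much of the affinity for GABA and the pharmacology, the β subunit is needed for assembly and carries part of the GABA site, and the γ subunit directs receptors to synapses through gephyrin. In immature neural cells the intracellular chloride is high, GABA depolarizes them, and receptors on progenitors and young neurons have been linked to their proliferation, migration and maturation. The α2, α3 and α5 subunits are prominent in the young brain, and α4 is best known from receptors outside synapses.

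Of the 7 genes, *Gabrg1*, *Gabra2*, *Gabra4* and *Gabrb1* lie together on chromosome 5 in 1397991 bp (GRCm38, GENCODE vM21, chr5:70751047-72149037). *Gabra4* (chr5:71569749-71658308, minus strand) and *Gabrb1* (chr5:71658113-72149037, plus strand) stand head to head: their 5′ ends overlap by 196 bp, with 46 shared exon bases. *Gabra5* (chr7:57407672-57510059, minus strand), *Gabra3* (chrX:72432681-72656848, minus strand, between *Gabre* and *Gabrq*) and *Gabrb2* (chr11:42419757-42629028, plus strand) lie elsewhere. Strand-specific counting is not given in the sources used here, so reads from the bases that *Gabra4* and *Gabrb1* share could not be told apart, in 6083 and 13838 exon bases.

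The start regions of the chromosome 5 genes are shown because the head-to-head pair was lower in shRNA RUS on both days, *Gabra2* on day 5 and *Gabrg1* on neither. Each window runs from 250 bases before to 50 after a RefSeq start (GRCm38.p6), 5′ to 3′ on the strand of the gene. RefSeq gives *Gabrb1* a start inside the *Gabra4* gene and another one further downstream. Capitals mark matches, on either strand, to 4 motifs: the GC box GGGCGG, the NRF1 core GCGCATGC, the E box CAGCTG and the TATA box TATAAA. They were chosen after the sequences had been seen.
*Gabra4*, chr5:71658259-71658558, minus strand: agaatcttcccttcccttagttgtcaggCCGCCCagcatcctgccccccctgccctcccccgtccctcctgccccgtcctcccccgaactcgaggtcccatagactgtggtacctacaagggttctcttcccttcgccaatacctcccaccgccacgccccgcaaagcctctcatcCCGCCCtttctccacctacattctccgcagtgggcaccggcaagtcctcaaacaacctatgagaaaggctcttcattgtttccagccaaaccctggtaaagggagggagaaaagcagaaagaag
*Gabrb1*, chr5:71657671-71657970, plus strand: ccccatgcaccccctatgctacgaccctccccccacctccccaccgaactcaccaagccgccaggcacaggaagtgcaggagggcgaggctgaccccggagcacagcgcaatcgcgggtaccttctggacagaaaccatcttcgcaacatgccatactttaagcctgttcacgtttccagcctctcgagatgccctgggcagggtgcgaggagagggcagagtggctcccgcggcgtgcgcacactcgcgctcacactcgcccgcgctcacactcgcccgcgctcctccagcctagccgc
*Gabrb1*, chr5:71699682-71699981, plus strand: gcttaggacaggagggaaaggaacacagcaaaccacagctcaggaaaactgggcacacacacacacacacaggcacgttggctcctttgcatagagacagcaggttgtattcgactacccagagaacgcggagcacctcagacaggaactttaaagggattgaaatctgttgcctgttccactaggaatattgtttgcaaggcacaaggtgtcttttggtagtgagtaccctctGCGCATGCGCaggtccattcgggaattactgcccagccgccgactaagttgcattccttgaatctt
*Gabra2*, chr5:71095800-71096099, minus strand: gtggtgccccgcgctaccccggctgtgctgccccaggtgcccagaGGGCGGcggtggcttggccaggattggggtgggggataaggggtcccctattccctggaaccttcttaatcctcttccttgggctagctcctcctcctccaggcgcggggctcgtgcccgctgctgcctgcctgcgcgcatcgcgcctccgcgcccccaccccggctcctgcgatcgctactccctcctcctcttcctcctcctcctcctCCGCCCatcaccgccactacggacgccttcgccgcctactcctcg
*Gabrg1*, chr5:70842568-70842867, minus strand: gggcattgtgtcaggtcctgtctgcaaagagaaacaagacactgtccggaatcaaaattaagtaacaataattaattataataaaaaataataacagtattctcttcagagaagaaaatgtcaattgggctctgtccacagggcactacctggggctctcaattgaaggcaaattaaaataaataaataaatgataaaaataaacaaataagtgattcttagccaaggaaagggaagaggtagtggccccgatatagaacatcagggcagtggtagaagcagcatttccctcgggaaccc
The windows of *Gabra4* and *Gabra2* each held 2 GC boxes. At least 1 GC box was in 35.7% of all 32851 windows of this length, a share not matched for GC content. The upstream *Gabrb1* window held none of the 4 motifs, and the downstream one held the NRF1 core on both strands in overlapping letters, a motif found in 2.71% of all windows. The *Gabrg1* window held none. A GC box was also in 1 of 3 windows of *Gabrb2*. The E box, in 16.3% of all windows, was in no member's window, and the TATA box, in 13.6%, was in both windows of *Gabra3* and in 1 of 3 of *Gabrb2*. The windows of *Gabra3* overlap and hold the same TATA box match. All 7 genes had a RefSeq window, 11 in all. The GC content was 70.0% for *Gabra2*, 66.0% for the upstream *Gabrb1* window, 58.7% for *Gabra4*, 50.3% for the downstream *Gabrb1* window and 38.3% for *Gabrg1*, beside a median of 52.7% over all windows.

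The target of the shRNA, *Gm20754* (*RUS*), was measured near the floor of these libraries, with an authors' base mean of 3.86 on day 5 and 8.57 on day 7. On day 5 its scaled TPM was 0.235, 0.117, 0.185 and 0.167 in shRNA CON and 0.0592, 0, 0.139 and 0.345 in shRNA RUS, in the order of the replicate numbers. On day 7 it was 0.653, 0.661, 0.238 and 0.506 in shRNA CON and 0.5, 0.348, 0 and 0.0364 in shRNA RUS. The groups overlapped on both days, with log2 differences of -0.40 and -1.28 (limma, adjusted p = 0.519 and 0.114), so that in these tables the target gene did not check the labels. Without shRNA RUS replicate 1 the day 7 value was -1.72 (adjusted p = 0.0359), and the library labelled shRNA RUS replicate 4 of day 5 lay above all 4 controls (without it the day 5 value was -0.77, adjusted p = 0.156). The log2 differences, shares and ratio of the 7 genes that use that library are given with and without it, and the day 5 calls of the list genes named below were kept without it. With TPM as deposited the median log2 difference of all genes between shRNA RUS and shRNA CON on day 5 was -0.21, and after scaling it was -0.06. The split of calls on day 5 was 3349 higher and 4034 lower after scaling, 1768 and 6037 with TPM as deposited, and 2418 and 4859 with scaling to the 75th percentile. Between the days it was 6394 higher and 5133 lower in shRNA CON and 8317 and 6135 in shRNA RUS, against 8573 and 3434 and 11801 and 3545 with TPM as deposited. For the difference between the knockdown effects of the days it was 3626 and 3464, against 5700 and 2053.

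Markers of several cell types were present in all groups. Their counts of genes called higher or lower in shRNA RUS (adjusted p in limma under 0.05) stand beside 14.8% higher and 17.9% lower among all genes on day 5 and 23.4% and 25.8% on day 7. Each sum below follows the most abundant genes of its list. NSC and radial glia markers summed to 12513 to 14661 scaled TPM in shRNA CON on day 5 and to 17784 to 21280 in shRNA RUS, without overlap, with 3 of 8 called higher and 2 lower. *Vim* (means 9181 and 13489) and *Fabp7* (3617 and 5150) made up most of these sums. The means of *Nes* (57.6 and 31.4) and *Hes5* (9.73 and 6.19) were lower in shRNA RUS. On day 7 the sums were 6864 to 7115 and 7050 to 7711, with 2 higher and 4 lower. Astrocyte markers summed to 5687 to 5901 and 7288 to 7777 on day 5 (2 of 8 higher, 1 lower) and to 2842 to 2896 and 3719 to 3891 on day 7 (4 higher, 1 lower), above the controls in all shRNA RUS libraries of both days. On day 5 the means were 1848 and 2791 for *Gfap* and 1327 and 1971 for *Aldoc*, but 86.1 and 55.3 for *Slc1a2*. Neuron markers lay at 514 to 591 and 527 to 591 on day 5 and at 754 to 839 and 720 to 856 on day 7. Markers of GABAergic neurons, among them *Dlx1* and *Gad1*, lay at 190 to 229 and 155 to 190 on day 5 and at 268 to 285 and 290 to 333 on day 7. Markers of fibroblasts and vessels stayed between 2.35 and 11.0, with 3 of 8 under 0.1 in each group and *Cldn5* listed at 0 in shRNA CON and *Cdh5* in shRNA RUS on day 7. On day 7, 8 of 8 microglia markers were lower in shRNA RUS (summed level 79.9 to 103, against 191 to 202 in shRNA CON), as were 6 of 8 oligodendrocyte lineage markers (239 to 263 against 375 to 412). On day 5, 3 of 8 microglia markers (71.2 to 88.8 against 82.7 to 87.5) and 4 of 8 oligodendrocyte lineage markers (166 to 254 against 247 to 329) were lower. Of 10 neuron markers, 2 were higher and 2 lower on day 5, and 5 were higher and 3 lower on day 7, counts that are near the shares of all genes on day 5. Of 10 markers of GABAergic neurons, 5 were lower on day 5, and 4 were higher and 2 lower on day 7. In such bulk libraries fewer cells of a type and less RNA per cell cannot be told apart, and the part of these shifts in the results below was not tested.

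The comparison of shRNA RUS with shRNA CON asks how depletion of *RUS* changes gene expression in differentiating NSC. A gene was called when its adjusted p in limma, over all genes tested, was under 0.05. On day 5, *Gabra2*, *Gabra4* and *Gabrb1* fell and none of the 7 rose, while 17.9% of 22581 genes tested were called lower and 14.8% higher. On day 7, *Gabra4* and *Gabrb1* fell and *Gabra3* and *Gabra5* rose, 2 of 7 in each direction, while 25.8% of 24606 genes were called lower and 23.4% higher. The counts of day 7 are close to this background and are no result about the 7 genes as a group. The median log2 fold change of the 7 genes was -0.29 on day 5 and 0.15 on day 7, beside -0.06 and -0.03 for all genes tested.

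**Figure D1:**
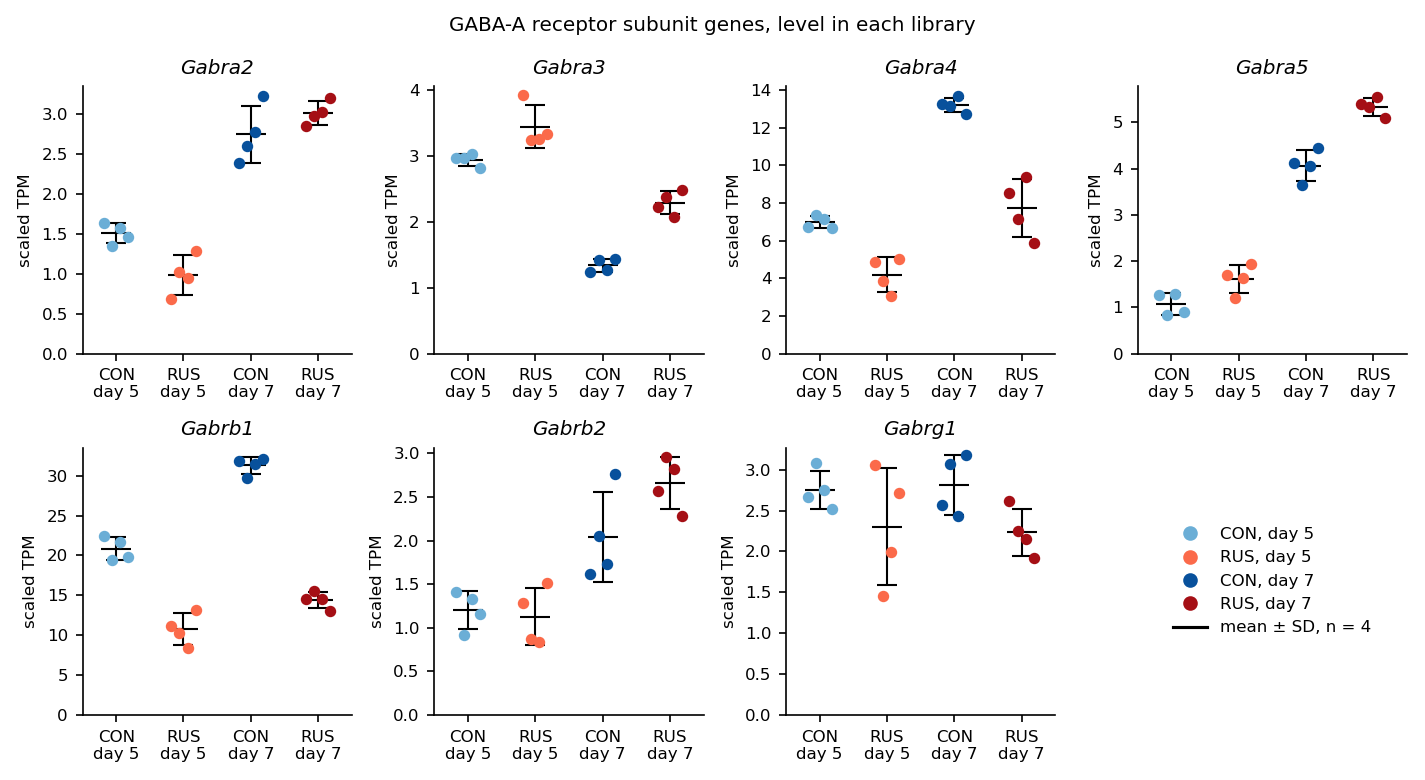
Level of the 7 subunit genes in scaled TPM (vertical axis, from 0) in each of the 4 libraries of shRNA CON and shRNA RUS on day 5 and day 7; points are libraries and bars show mean ± SD. *Gabrb1* and *Gabra4* were lower in shRNA RUS on both days without overlap, and *Gabrg1* overlapped in all groups. The *Gabra3* libraries of shRNA RUS lay above the controls, though with TPM as deposited they overlapped on day 5.

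**Figure D2:**
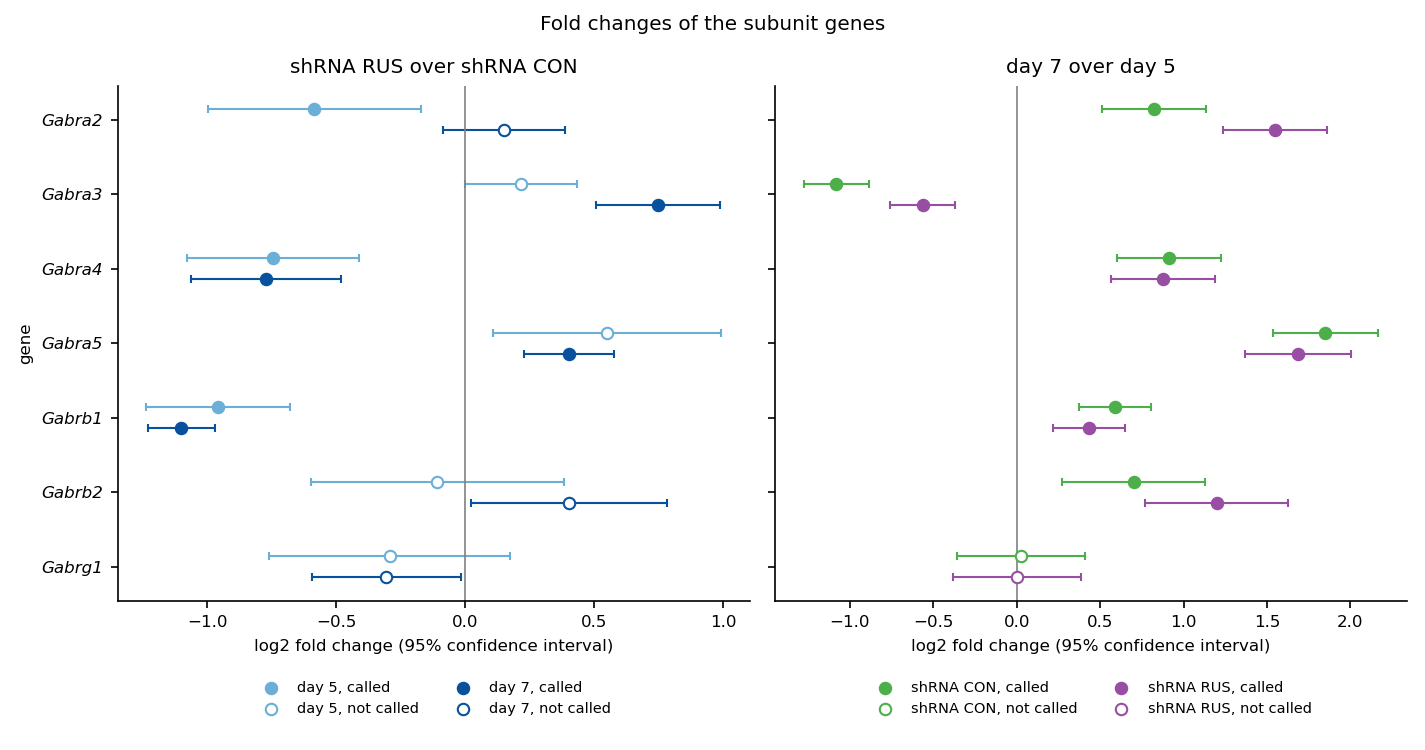
Log2 fold changes (horizontal axis) of the 7 subunit genes with 95% confidence intervals from limma, for shRNA RUS over shRNA CON on each day (left) and for day 7 over day 5 with each shRNA (right); filled points were called. *Gabrb1* had the lowest value on both days, -0.96 and -1.10, and *Gabra5* the highest between the days, 1.85 and 1.68.

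*Gabra2* encodes the α2 subunit, which is common in the embryonic and perinatal brain. On day 5 its scaled TPM was 1.63, 1.35, 1.58 and 1.46 in shRNA CON and 0.686, 1.02, 0.948 and 1.28 in shRNA RUS. Its day 7 values were 2.39, 2.60, 2.77 and 3.22 in shRNA CON and 2.85, 2.97, 3.02 and 3.20 in shRNA RUS. All 4 libraries labelled shRNA RUS lay below the controls on day 5, and the groups overlapped on day 7. *Gabra2* fell by 0.58 on the log2 scale on day 5 (SE 0.18, limma, adjusted p = 0.036), and the value on day 7 was 0.15 (95% confidence interval -0.09 to 0.39, adjusted p = 0.272). Without the library labelled shRNA RUS replicate 4 the day 5 value was -0.71 (adjusted p = 0.0116). The call was lost without any other library of day 5, with an adjusted p of 0.0867, 0.0538, 0.0883 and 0.067 without shRNA CON replicate 1, 2, 3 and 4 and of 0.0704, 0.063 and 0.0745 without shRNA RUS replicate 1, 2 and 3. It was also lost under quantile normalization (-0.41, adjusted p = 0.117) and without a filter on low values (adjusted p = 0.0793). The knockdown effect itself differed between the days, by 0.73 (SE 0.21, adjusted p = 0.0151, and 0.85 without the library labelled replicate 4). With 1 TPM added in place of 0.1 the day 5 value was -0.33 and this difference 0.45, both still called.

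*Gabra3* encodes the α3 subunit, another α subunit of the immature cortex. Its scaled TPM on day 5 was 2.96, 2.97, 3.03 and 2.81 in shRNA CON and 3.93, 3.24, 3.26 and 3.34 in shRNA RUS. The day 7 libraries had 1.24, 1.41, 1.27 and 1.43 in shRNA CON and 2.22, 2.38, 2.08 and 2.48 in shRNA RUS. The libraries labelled shRNA RUS lay above the controls on both days. On day 5 this held after scaling, while with TPM as deposited the groups overlapped and the difference was 0.06 (limma, adjusted p = 0.674). The day 5 difference of 0.22 (SE 0.10) did not pass the test over all genes (adjusted p = 0.117, and 0.23 with an adjusted p of 0.118 without the library labelled replicate 4), and *Gabra3* rose by 0.75 on day 7 (SE 0.11, adjusted p = 0.000297), a fold of 1.68. The effect was larger on day 7, by 0.52 (SE 0.13, adjusted p = 0.00728), by 0.51 without that library (adjusted p = 0.0101) and by 0.32 with 1 TPM added (adjusted p = 0.0163).

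*Gabra4* encodes the α4 subunit and had the highest mean level of the 4 α genes in all 4 groups. On day 5 its scaled TPM was 6.72, 7.34, 7.16 and 6.68 in shRNA CON and 4.85, 3.83, 3.05 and 5.01 in shRNA RUS. On day 7 it was 13.3, 13.2, 13.7 and 12.7 in shRNA CON and 8.55, 7.16, 9.38 and 5.87 in shRNA RUS. Those labelled shRNA RUS lay below the controls on both days, with a wider spread than the controls. *Gabra4* fell by 0.74 on day 5 (SE 0.15, adjusted p = 0.00453) and by 0.77 on day 7 (SE 0.13, adjusted p = 0.000811), to 60.0% and 58.6% of the control mean. Without the library labelled replicate 4 the day 5 value was -0.84 (adjusted p = 0.00223). The difference between the 2 effects was -0.04, with an interval of -0.48 to 0.40 (adjusted p = 0.917), and 0.06 without that library (adjusted p = 0.864).

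*Gabra5* encodes the α5 subunit, known from extrasynaptic receptors of the hippocampus. On day 5 its scaled TPM was 1.26, 0.838, 1.30 and 0.897 in shRNA CON and 1.69, 1.19, 1.64 and 1.93 in shRNA RUS. Its day 7 values were 4.12, 3.64, 4.06 and 4.45 in shRNA CON and 5.39, 5.32, 5.55 and 5.09 in shRNA RUS. The groups overlapped on day 5 through replicate 2 of shRNA RUS and were apart on day 7. The day 5 difference was 0.55 (SE 0.20, adjusted p = 0.0585, and 0.68 with an adjusted p of 0.0319 without shRNA RUS replicate 2). It was 0.47 without the library labelled replicate 4 (adjusted p = 0.114) and 0.40 with TPM as deposited (adjusted p = 0.181). *Gabra5* rose by 0.40 on day 7 (SE 0.08, adjusted p = 0.00189), a fold of 1.32. The effects of the days differed by -0.17, with an interval of -0.61 to 0.28 (adjusted p = 0.601), and by -0.08 without that library (adjusted p = 0.813).

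*Gabrb1* encodes the β1 subunit, is one of the neuronal markers that the study followed, and had the highest level of the 7 genes in every group. Its scaled TPM on day 5 was 22.4, 19.4, 21.7 and 19.8 in shRNA CON and 11.2, 10.3, 8.44 and 13.2 in shRNA RUS. The day 7 libraries had 31.8, 29.7, 31.5 and 32.1 in shRNA CON and 14.6, 15.5, 14.6 and 13.02 in shRNA RUS. The groups were far apart on both days. *Gabrb1* fell by 0.96 on day 5 (SE 0.12, adjusted p = 0.000449) and by 1.10 on day 7 (SE 0.06, adjusted p = 6.46e-07), to 51.7% and 46.1% of the control mean. Without the library labelled replicate 4 the day 5 value was -1.06 (adjusted p = 0.00013). The difference between the effects was -0.15, with an interval of -0.46 to 0.15 (adjusted p = 0.46), and -0.05 without that library (adjusted p = 0.779).

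*Gabrb2* encodes the β2 subunit, which is abundant in the adult brain. On day 5 its scaled TPM was 1.41, 0.923, 1.33 and 1.16 in shRNA CON and 1.29, 0.877, 0.833 and 1.52 in shRNA RUS. On day 7 it was 1.61, 2.06, 1.73 and 2.76 in shRNA CON and 2.56, 2.96, 2.82 and 2.28 in shRNA RUS. The groups overlapped on both days. The difference was -0.11 on day 5 (interval -0.60 to 0.38, adjusted p = 0.746, and -0.25 with an adjusted p of 0.386 without the library labelled replicate 4) and 0.40 on day 7 (interval 0.02 to 0.78, adjusted p = 0.0755). Replicate 4 of shRNA CON was the highest control on day 7, and without it the value was 0.55 (adjusted p = 0.00981).

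*Gabrg1* encodes the γ1 subunit, which is also found in glial cells. On day 5 its scaled TPM was 2.67, 3.08, 2.75 and 2.52 in shRNA CON and 3.05, 1.46, 1.99 and 2.72 in shRNA RUS. Its day 7 values were 2.56, 3.07, 2.43 and 3.18 in shRNA CON and 2.61, 2.25, 2.15 and 1.92 in shRNA RUS. All 4 groups overlapped, and the spread was widest in shRNA RUS on day 5. The difference was -0.29 on day 5 (interval -0.76 to 0.17, adjusted p = 0.316), and -0.31 on day 7 (interval -0.59 to -0.02, adjusted p = 0.0763). Its day 5 value was -0.10 without shRNA RUS replicate 2, the lowest library (adjusted p = 0.678), and -0.38 without the library labelled replicate 4 (adjusted p = 0.205). Replicate 1 of shRNA RUS overlapped the controls on day 7, and without it the value was -0.38 (adjusted p = 0.0416).

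Day 7 was compared with day 5 within each shRNA to follow the genes through the first 2 days of differentiation. In shRNA CON, *Gabra2*, *Gabra4*, *Gabra5*, *Gabrb1* and *Gabrb2* rose and *Gabra3* fell, while 26.9% of 23789 genes were called higher and 21.6% lower. The calls were the same 6 genes in shRNA RUS, where 35.0% of genes were called higher and 25.8% lower. *Gabra5* had the largest rise in shRNA CON, by 1.85 (SE 0.15, adjusted p = 5.82e-08), from a mean of 1.07 ± 0.24 to 4.07 ± 0.33 scaled TPM (SD, n = 4), and in shRNA RUS it rose by 1.68 (SE 0.15, adjusted p = 8.85e-08). *Gabra4* rose by 0.91 and 0.87 (SE 0.15 each, adjusted p = 8.74e-05 and 8.22e-05). *Gabrb1* rose by 0.59 and 0.43 (SE 0.10 each, adjusted p = 0.000174 and 0.00159), and its day 5 and day 7 libraries of shRNA RUS overlapped through the library labelled replicate 4 of day 5. *Gabrb2* rose by 0.70 and 1.20 (SE 0.20 each, adjusted p = 0.00887 and 8.3e-05), and under quantile normalization the value in shRNA CON was 0.47 (adjusted p = 0.0647). With 1 TPM added its rises were 0.45 and 0.79, both still called. *Gabra2* rose by 0.82 in shRNA CON (SE 0.15, adjusted p = 0.000224) and by 1.55 in shRNA RUS (SE 0.15, adjusted p = 1.84e-07, and by 1.02 with 1 TPM added). *Gabra3* went the other way and fell by 1.08 in shRNA CON (SE 0.09, adjusted p = 1.04e-07) and by 0.56 in shRNA RUS (SE 0.09, adjusted p = 6.01e-05). The size of some of these changes in shRNA RUS moved with the scaling: for *Gabra3* it was -0.25 with TPM as deposited (adjusted p = 0.0298), and for *Gabrb1* 0.75 with TPM as deposited (adjusted p = 3.11e-05) and 0.28 under quantile normalization (adjusted p = 0.0141). The shRNA RUS values without the library labelled replicate 4 were 1.68 for *Gabra2*, -0.58 for *Gabra3*, 0.97 for *Gabra4*, 1.77 for *Gabra5*, 0.54 for *Gabrb1* and 1.34 for *Gabrb2*, and these 6 stayed called, with 0.09 for *Gabrg1* (adjusted p = 0.692). *Gabrg1* was at 0.02 and 0.00, with intervals of -0.36 to 0.41 and -0.38 to 0.39 (adjusted p = 0.933 and 1). Of the other subunit genes, *Gabrg3* rose by 1.31 and 1.12 (SE 0.12 each, adjusted p = 1.87e-07 and 5.46e-07), the latter 0.72 with 1 TPM added. These comparisons share their libraries with those between the shRNAs.

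The knockdown effect differed between the days for 2 of the 7 genes, *Gabra2* and *Gabra3*, both toward higher values on day 7, while 15.2% of 23789 genes were called higher in this difference and 14.6% lower. For *Gabra2* the same contrast reads as a rise between the days that was steeper in shRNA RUS, to 306% of the day 5 mean against 183% in shRNA CON. For *Gabra3* it reads as a shallower fall, to 66.6% against 45.5%. For *Gabrb2* the difference was 0.50, with an interval of -0.11 to 1.10 (adjusted p = 0.209), and for *Gabrg1* it was -0.02, with an interval of -0.57 to 0.52 (adjusted p = 0.963). They were 0.64 (adjusted p = 0.0808) and 0.07 (adjusted p = 0.865) without the library labelled replicate 4 of day 5.

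The order of levels, which TPM allows because they are per length, shifted with day and shRNA. *Gabrb1* and *Gabra4* led in all 4 groups. In shRNA CON on day 5 they were followed by *Gabra3* (2.94 ± 0.091, SD, n = 4) and *Gabrg1* (2.75 ± 0.24), which overlapped, and by *Gabra2* (1.503 ± 0.13), *Gabrb2* (1.21 ± 0.22) and *Gabra5*, of which *Gabrb2* overlapped its neighbours on either side. In shRNA CON on day 7 *Gabra5* (4.07 ± 0.33) came next, above *Gabrg1* (2.81 ± 0.37) and *Gabra2* (2.74 ± 0.36), and *Gabra3* (1.34 ± 0.097) was last, below *Gabrb2* (2.04 ± 0.52) without overlap. In shRNA RUS on day 5 *Gabra4* (4.19 ± 0.92) and *Gabra3* (3.44 ± 0.33) overlapped. They were followed by *Gabrg1* (2.31 ± 0.72), *Gabra5* (1.61 ± 0.31), *Gabrb2* (1.13 ± 0.33) and *Gabra2* (0.984 ± 0.25). *Gabrg1* lay below *Gabra3* without overlap, and from *Gabrg1* on each gene overlapped the next. In shRNA RUS on day 7 *Gabra2* (3.01 ± 0.15), *Gabrb2* (2.66 ± 0.30), *Gabra3* (2.29 ± 0.18) and *Gabrg1* (2.24 ± 0.29) followed *Gabra5* (5.34 ± 0.19). *Gabra2* lay below *Gabra5* without overlap, and from *Gabra2* on each gene overlapped the next.

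**Figure D3:**
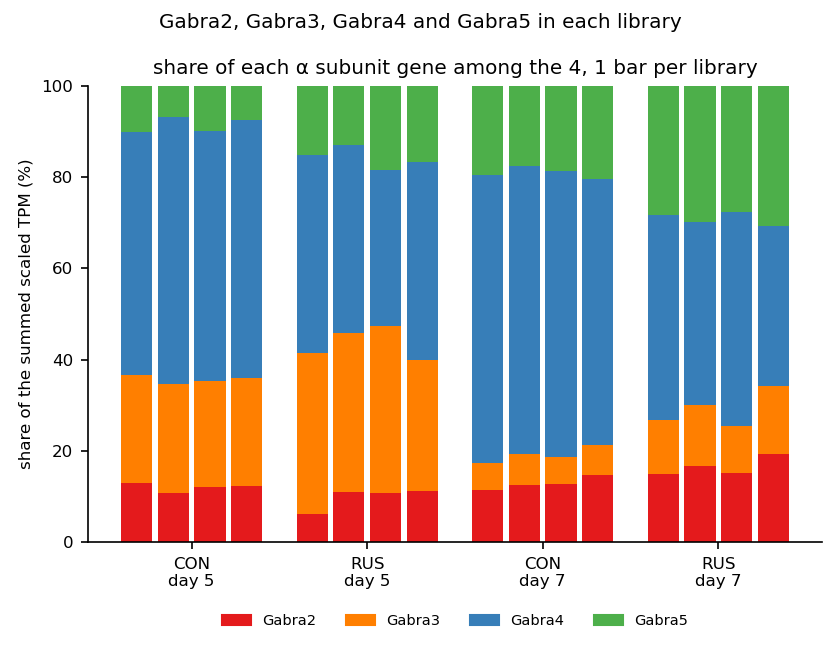
Share of *Gabra2*, *Gabra3*, *Gabra4* and *Gabra5* in their summed scaled TPM (vertical axis, percent), 1 bar per library. The *Gabra4* share was 55.9% and 61.9% in shRNA CON and 40.6% and 41.8% in shRNA RUS on day 5 and day 7.

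Shares among the 4 α genes do not depend on the scaling between libraries. *Gabra4* made up 55.9% ± 2.3 (SD, n = 4) of their summed level in shRNA CON on day 5 and 40.6% ± 4.3 in shRNA RUS, and 61.9% ± 2.4 and 41.8% ± 5.2 on day 7. The lowest control library, at 53.5% on day 5 and 58.3% on day 7, lay above the highest library labelled shRNA RUS, at 43.5% and 46.8%. *Gabra5* stood at 8.55% ± 1.7 and 15.8% ± 2.4 on day 5 and at 19.0% ± 1.2 and 29.1% ± 1.3 on day 7, and *Gabra3* at 23.6% ± 0.27 and 33.9% ± 3.4 and at 6.27% ± 0.47 and 12.6% ± 2.0, in the same order. For *Gabra3* and *Gabra5* the groups did not overlap on either day. *Gabra2* had 12.03% ± 0.91 and 9.71% ± 2.4 on day 5 and 12.8% ± 1.4 and 16.5% ± 2.0 on day 7, where the libraries labelled shRNA RUS lay above the controls. The 4 genes together had 12.5 ± 0.49 and 10.2 ± 1.3 scaled TPM on day 5 and 21.4 ± 0.52 and 18.4 ± 1.5 on day 7. Day 5 shares in shRNA RUS without the library labelled replicate 4 were 39.7% for *Gabra4*, 15.5% for *Gabra5*, 35.6% for *Gabra3* and 9.25% for *Gabra2*, of a sum of 9.78. No test was run on shares, which are linked by their common sum.

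*Gabrb1* and *Gabra4*, the head-to-head pair, did not keep a fixed ratio of levels. It was 2.99 ± 0.28 in shRNA CON (SD, n = 4) and 2.59 ± 0.20 in shRNA RUS on day 5, and 2.37 ± 0.12 and 1.91 ± 0.33 on day 7. Without the library labelled replicate 4 the day 5 ratio in shRNA RUS was 2.58 ± 0.24 (SD, n = 3). On day 5 the groups overlapped, and on day 7 the controls (2.26 to 2.52) lay above the libraries labelled shRNA RUS (1.56 to 2.22). The other 2 genes of the cluster, *Gabra2* and *Gabrg1*, were not called on day 7.

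Of 9 other genes for GABA-A and GABA-rho subunits, 4 passed the filter on low values on each day, but not the same 4. *Gabrg3*, *Gabrq* and *Gabrr2* passed on both days, *Gabre* on day 5 only and *Gabrr1* on day 7 only. The medians of the log2 differences, over these differing sets, were -0.29 (day 5) and -0.42 (day 7). None was called on day 5, and on day 7 *Gabrg3* and *Gabrr1* were called lower. Among all genes 17.9% and 25.8% were called lower, with medians of -0.06 and -0.03, and a count over 4 genes is no result about the group. *Gabrg3*, for the γ3 subunit, fell by 0.42 on day 7 (SE 0.10, adjusted p = 0.00718), from 3.16 ± 0.23 to 2.31 ± 0.24 scaled TPM (SD, n = 4), and the day 5 value was -0.24 (adjusted p = 0.247). *Gabrr1*, for the ρ1 subunit known from the retina, was at 0.0637 to 0.136 in shRNA CON and 0.0351 to 0.194 in shRNA RUS on day 5, where its mean was too low to be tested. On day 7 it had 2.66, 2.04, 2.79 and 2.88 in shRNA CON and 1.24, 1.08, 1.03 and 1.45 in shRNA RUS. It rose between the days by 3.77 and 2.81 (SE 0.23 each, adjusted p = 2.99e-09 and 4.53e-08) and was lower in shRNA RUS on day 7, by -1.04 (SE 0.15, adjusted p = 0.000313). These folds lean on the added 0.1 TPM, since the day 5 values are near it, and with 1 TPM added the rises were 1.70 and 1.01. *Gabrr1* passed the filter over 16 libraries only through its day 7 level. Its knockdown effect on day 7 minus that on day 5 was -0.96 (SE 0.33, adjusted p = 0.0396). Since the added 0.1 TPM compresses its day 5 effect, this contrast mostly restates the day 7 difference and is no separate result. With 0.01 TPM added it was -0.83 (adjusted p = 0.29). The call was lost under 13 alternatives (adjusted p = 0.0551 to 0.29), among them leaving out any 1 library other than shRNA CON replicate 3 or 4 or shRNA RUS replicate 2 or 3 of day 5, shRNA CON replicate 2 of day 7 or shRNA RUS replicate 4 of day 7. *Gabrq*, *Gabre* and *Gabrr2* had at most 0.444 scaled TPM in any library and were not called for the knockdown on a day on which they were tested. For *Gabrr2* the difference between the knockdown effects of the days was 0.91 (adjusted p = 0.0549). It ran from 0.25 to 1.28 over the settings and was called under 4 alternatives. Between the days *Gabre* fell by 0.77 in shRNA CON (SE 0.27, adjusted p = 0.0263, and by 0.16 with 1 TPM added), which was lost without replicate 1 or 2 of day 5 or replicate 2 or 4 of day 7 and in the fit over these 2 groups only (adjusted p = 0.0617 to 0.094). In shRNA RUS *Gabrr2* rose by 0.62 (SE 0.24, adjusted p = 0.0347, and by 0.18 with 1 TPM added), which was lost without replicate 2, 3 or 4 of day 5 or replicate 1 or 3 of day 7, in the fit over these 2 groups only and under quantile normalization (adjusted p = 0.0501 to 0.421). *Gabrd*, *Gabrp* and *Gabrr3* were tested on neither day, and *Gabra6* was listed at 0 in all 16 libraries.

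Genes that serve the GABA-A receptor were taken as 6 further lists and are described by their counts and medians. Of all genes, 14.8% were called higher and 17.9% lower on day 5, and 23.4% and 25.8% on day 7. List counts near these shares, such as those for GABA metabolism on day 5 and for GABA-B receptors on day 5, are no result about the list, and the glycine receptor and modulator lists rest on 2 to 4 genes tested. Of 24 genes for anchoring and traffic, 7 were called higher and 9 lower on day 5, with a median log2 fold change of -0.10, and 12 higher and 6 lower on day 7, with a median of 0.25. *Gphn*, for gephyrin, the scaffold under inhibitory synapses, fell by 0.70 on day 5 (SE 0.05, adjusted p = 4.09e-05). It also fell by 0.62 on day 7 (SE 0.09, adjusted p = 0.000469), from 24.4 ± 2.3 to 15.8 ± 1.9 scaled TPM (SD, n = 4). *Gabarap*, for a ubiquitin-like protein that takes part in receptor traffic, rose by 0.59 on day 5 (SE 0.06, adjusted p = 0.000134, and 0.36 under quantile normalization). On day 7, *Iqsec3*, for a guanine exchange factor bound to gephyrin, rose by 0.87 (SE 0.11, adjusted p = 0.000119) and *Gabarapl2*, a relative of *Gabarap*, fell by 0.62 (SE 0.06, adjusted p = 3.24e-05).

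Of 11 genes for GABA synthesis, loading, uptake and breakdown, 9 were tested. On day 5, 1 was higher and 1 lower, with a median of -0.10, and on day 7, 7 were higher and 1 lower, with a median of 0.25. *Gad1*, for the enzyme that makes most GABA in neurons, fell by 0.34 on day 5 (SE 0.08, adjusted p = 0.0111) and rose by 0.27 on day 7 (SE 0.05, adjusted p = 0.00271), from 43.9 ± 2.2 to 52.4 ± 3.7 scaled TPM. *Slc6a11*, for the glial transporter GAT3, fell by 0.24 on day 7 (SE 0.09, adjusted p = 0.0451), a call lost without any 1 library of that day other than shRNA RUS replicate 3 (adjusted p = 0.115, 0.0516, 0.0581 and 0.0733 without shRNA CON replicate 1, 2, 3 and 4, and 0.0825, 0.0941 and 0.109 without shRNA RUS replicate 1, 2 and 4). It was also lost under quantile normalization, with 1 TPM added, without a filter and in the fit over 16 libraries (adjusted p = 0.0513 to 0.144). The day 5 value was 0.33 (SE 0.12, adjusted p = 0.058), which was called with a filter at 1 TPM (adjusted p = 0.0427), under quantile normalization (0.47, adjusted p = 0.0138) and in the fit over 16 libraries (0.32, adjusted p = 0.0192). *Gad1*, *Gad2* and *Slc32a1* also stand among the markers of GABAergic neurons.

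**Figure D4:**
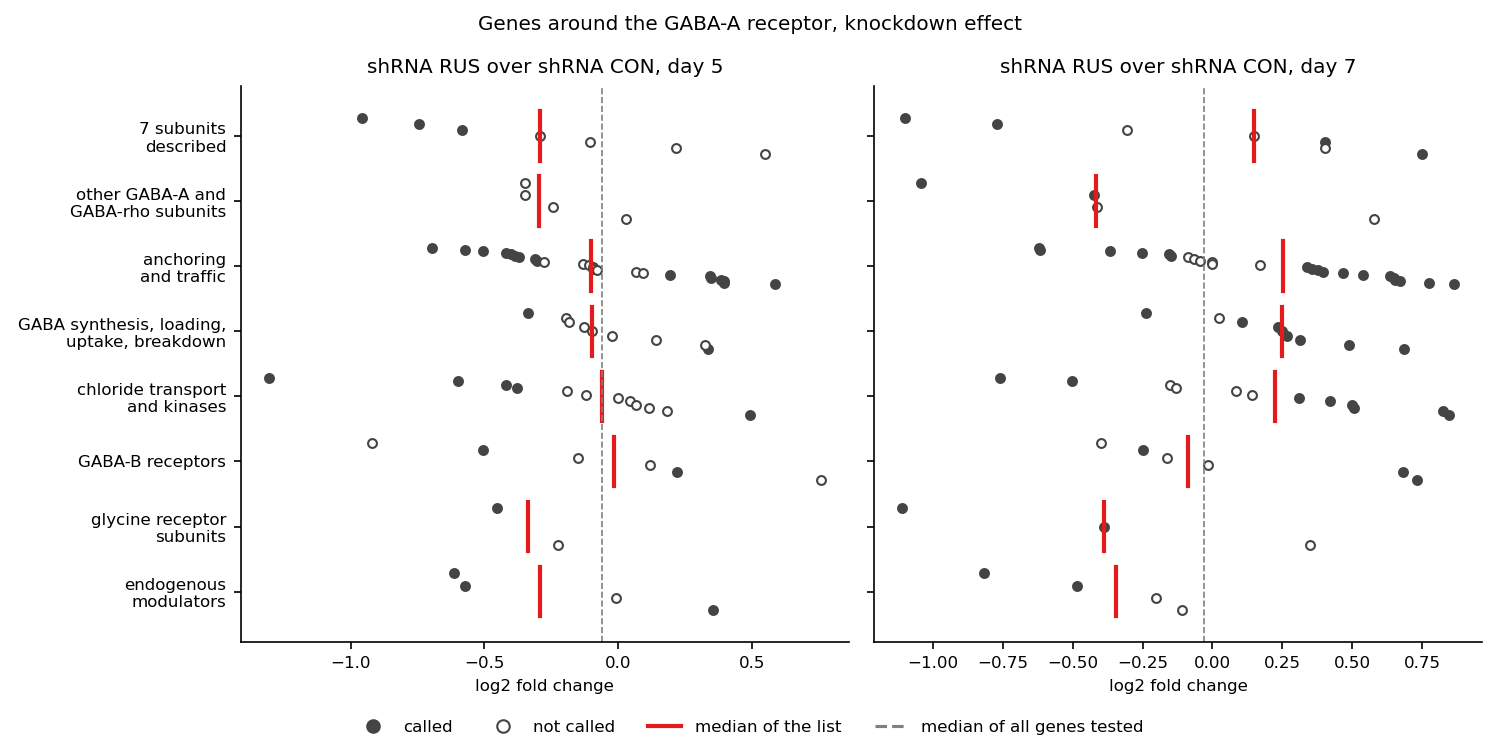
Log2 fold changes of shRNA RUS over shRNA CON (horizontal axis) for the 7 subunit genes and 7 lists of related genes (rows) for day 5 (left panel) and day 7 (right panel); each point is a gene, filled when called, red bars are medians of a list and the dashed line is the median of all genes tested. The medians of the lists for traffic, GABA metabolism and chloride transport lay at -0.10, -0.10 and -0.06 on day 5 and at 0.25, 0.25 and 0.23 on day 7.

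The chloride gradient decides the direction of current through the receptor. Of 12 genes for chloride transport and its kinases, 1 was higher and 4 lower on day 5, with a median of -0.06, and 6 were higher and 2 lower on day 7, with a median of 0.23. *Wnk3*, for a kinase that controls cation-chloride cotransporters, had the largest decrease on both days and fell by 1.31 (SE 0.18, adjusted p = 0.000625) and by 0.76 (SE 0.09, adjusted p = 0.000106). *Wnk1*, for a related kinase, rose by 0.49 on day 5 (SE 0.08, adjusted p = 0.00188), and *Clcn2*, for a chloride channel, rose by 0.85 on day 7 (SE 0.05, adjusted p = 1.48e-06).

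The metabotropic GABA-B receptor and its auxiliary subunits count 6 genes, of which 1 was higher and 1 lower on day 5 (median -0.02) and 2 higher and 1 lower on day 7 (median -0.09). *Gabbr1*, for the GABA-binding subunit, rose by 0.22 on day 5 (SE 0.06, adjusted p = 0.0191), which was lost with TPM as deposited (0.06, adjusted p = 0.552), under quantile normalization and with scaling to the 75th percentile (0.14 each, adjusted p = 0.113 and 0.102), without shRNA CON replicate 3 or 4 (adjusted p = 0.0629 and 0.0511) and without shRNA RUS replicate 2 or 3 (0.0524 and 0.053). It rose by 0.68 on day 7 (SE 0.06, adjusted p = 9.02e-06). *Gabbr2*, for its partner, fell by 0.51 on day 5 (SE 0.12, adjusted p = 0.00903), and its day 7 value was -0.02 (interval -0.19 to 0.16, adjusted p = 0.896). On day 7 *Kctd12b* rose by 0.73 (SE 0.08, adjusted p = 5.78e-05) and *Kctd12* fell by 0.25 (SE 0.06, adjusted p = 0.00554), both for auxiliary subunits.

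Of 5 glycine receptor genes, 1 of 2 tested was lower on day 5 and 2 of 3 on day 7, with medians of -0.34 and -0.39. *Glrb*, for the β subunit that binds gephyrin, fell by 0.45 on day 5 (SE 0.10, adjusted p = 0.00742), and *Glra4* fell by 1.11 on day 7 (SE 0.21, adjusted p = 0.00166, and by 0.60 with 1 TPM added). Of 4 genes for endogenous modulators, 1 was higher and 2 lower on day 5 (median -0.29) and 2 lower on day 7 (median -0.34). *Akr1c14*, for an enzyme that makes neurosteroids which enhance GABA-A currents, fell by 0.61 on day 5 (SE 0.08, adjusted p = 0.000471) and by 0.82 on day 7 (SE 0.07, adjusted p = 9.36e-06). *Dbi*, for a peptide that binds the benzodiazepine site, rose by 0.36 on day 5 (SE 0.10, adjusted p = 0.0202). This call was lost without shRNA CON replicate 3 (adjusted p = 0.0586) and without shRNA RUS replicate 1 or 3 (0.0543 and 0.0608) and without a filter on low values (0.123), and the value was 0.20 with TPM as deposited and -0.02 under quantile normalization.

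Across the 16 libraries, which form 4 groups and therefore share their group differences, the 7 genes did not follow 1 pattern. On the log2 scale Pearson's r was 0.90 between *Gabra4* and *Gabrb1*, 0.89 between *Gabra5* and *Gabrb2*, 0.86 between *Gabra2* and *Gabrb2*, and -0.90 between *Gabra3* and *Gabra4*. It was 0.21 between *Gabra5* and *Gabrb1* and -0.04 between *Gabra5* and *Gabrg1*. Among 15853 genes with a mean of at least 1 scaled TPM, the 3 most like *Gabrb1* were *Cfap54*, *Wdr35* and *Pafah1b2* (r = 0.99 each), and the 3 most like *Gabra4* were *Tspyl5* (0.98), *Aph1b* (0.98) and *Stx17* (0.97). *Gabra2* was most like *Gm16386* (0.99), *Smarcc1* (0.98) and *Pura* (0.98), *Gabra3* was close to *Klf9* and *Csrp1* (0.98 each), and *Gabra5* was most like *Gm32200*, *Acsl1* and *Sprtn* (0.98 each). The likeness was lower for *Gabrb2*, to *Ate1* (0.97), *Hook3* (0.97) and *Zbtb33* (0.97), and for *Gabrg1*, to *Klhl13* (0.89), *Eif4a2* (0.88) and *Fbxo3* (0.88).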

How the data were processed

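Poly(A)-enriched RNA of 16 libraries was sequenced, and the authors aligned the reads with STAR (version not given in the sources used here) to mm10 (GRCm38) and estimated TPM with RSEM, 1 table per day. The base mean column, a signal averaged by the authors over the libraries of a day, is quoted as deposited. Columns with the authors' own fold changes, standard errors, test statistics and p-values were not used. Each table had 55471 lines; 106 lines whose symbols differed between the days or were missing were left out. No reads, and so no depth, could be recovered, and the precision rests on 4 libraries per group.

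To scale libraries, each gene with 1 TPM or more in all of them was set against its geometric mean, and the median of these ratios served as divisor of the library. Then 0.1 TPM was added before taking log2, so that changes of low genes are understated. Genes that averaged 0.1 TPM or more were fitted with limma 3.58.1 (R 4.3.3, eBayes with a trend, two-sided, Benjamini-Hochberg adjustment over all genes): the shRNAs on the 8 libraries of a day, the days and their difference on all 16. A gene was called at an adjusted p under 0.05. The fit was tested on simulated data. Named were the 7 genes, the other tested subunits, the target gene, of each list the called gene with the largest increase and decrease on each day (mean of at least 1 TPM), and the 3 genes most correlated with each member. Some genes that these rules name are not reported here, and list counts leave them out. Genes and lists were chosen with earlier results of these data known. Alternatives changed the scaling, the added value, the filter, the variance model, the libraries fitted, the replicate block and each library in turn. Tables and figures were made with Python 3.11.15 (pandas 2.3.3, matplotlib 3.10.9).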

Additional observations from a re-analysis of the deposited data

Results flagged for a closer look

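In shRNA RUS on day 5, *Gabra3* had 3.24, 3.26 and 3.34 scaled TPM in 3 libraries and 3.93 in replicate 1, whose gap to the next value was 0.849 of the whole range, above Dixon's 95% critical value for 4 samples. It was the only such library among 28 groups examined, and chance marks about 1 group in 20.

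The difference between shRNA RUS and shRNA CON was not the same on both days for *Gabra2* and *Gabra3*. By the interaction term of the limma fit over 16 libraries it was higher on day 7 than on day 5 by 0.73 for *Gabra2* (SE 0.21, adjusted p = 0.0151) and by 0.52 for *Gabra3* (SE 0.13, adjusted p = 0.00728). Without the library labelled shRNA RUS replicate 4 of day 5 the values were 0.85 (adjusted p = 0.00224) and 0.51 (adjusted p = 0.0101), and with 1 TPM added in place of 0.1 they were 0.45 (adjusted p = 0.015) and 0.32 (adjusted p = 0.0163).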

How the results depend on the processing

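Of the 7 subunit genes, 3 were called between the shRNAs on day 5 and 2 to 4 under the alternatives (2 to 3 when 1 library was left out). On day 7 it was 4, with 4 to 5 under the alternatives and when 1 library was left out. Between the days it was 6 in shRNA CON (5 to 6) and 6 in shRNA RUS under every alternative run, and 2 for the difference between the days under every alternative run. Of 791 single values, 773 kept their side of the threshold, 7 became called and 11 lost their call, 10 of them *Gabra2* on day 5. The sign changed in 29, of *Gabra4*, *Gabrb1*, *Gabrb2* and *Gabrg1*, none of them called before or after. Under quantile normalization *Gabra3* and *Gabra5* were called on day 5 (0.37 and 0.73, adjusted p = 0.016 and 0.0174) and *Gabrb2* on day 7 (0.48, adjusted p = 0.0451), and *Gabra5* was called on day 5 in the fit over 16 libraries (adjusted p = 0.008). With TPM as deposited the day 5 values of *Gabra3* and *Gabra5* were smaller, at 0.06 and 0.40 (adjusted p = 0.674 and 0.181). Direction was reversed for *Dbi* on day 5 under quantile normalization (-0.017). The cause was not tested.

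Same-numbered libraries of the 2 shRNAs did not deviate together (r of -0.25 to -0.02 on day 5 and 0.02 to 0.10 on day 7), so the numbers were not taken as pairs. With the replicate number as a block, 2 genes were called on day 5, *Gabra2* at an adjusted p of 0.0919, and 4 on day 7, and the other counts were unchanged, while *Gabbr2*, *Gabbr1* and *Dbi* on day 5 (adjusted p = 0.0558, 0.0913 and 0.104) and *Slc6a11* on day 7 (0.0878) lost their calls and *Gm20754* and *Dbi* on day 7 became called (0.0358 and 0.0475). Without read counts, the precision of low genes such as *Gm20754* cannot be separated from depth.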
